A study of Rattus norvegicus with 16 samples.

Results

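The genes described here are the cadherins and the protocadherins whose symbols are Cdh or Pcdh followed by a number. They were picked out by symbol, which gave 34 of the 31038 genes in the files, 23 named Cdh and 11 named Pcdh. RNA was sequenced from 16 libraries, 2 from each of 8 groups of rats, with the age given as postnatal day 18, when the crush was made. In 4 groups the RNA came from Schwann cells purified from the sciatic nerve, either from uncrushed nerves or from nerves 3, 5 or 7 days after a crush. In the other 4 groups it came from whole sciatic nerve at the same stages. Injured nerves were taken distal to the crush, and the matching stretch was taken from uncrushed nerves, which came from animals without a sham operation. Schwann cells were obtained by immunopanning, in which a cell suspension is passed over antibody-coated dishes. Dishes against CD45 and Thy1 removed other cells and a dish against O4 kept the Schwann cells. At least 10 nerves were pooled for each sample of purified cells, and nerves were digested with enzymes for the purified cells but not for whole nerve. By the paper's methods, fewer cells were recovered per nerve from uncrushed nerves than from crushed ones. The labels do not say whether the 2 libraries of a group came from separate sets of animals, so the p-values measure only the spread between these libraries, which may be technical.

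Cadherins are transmembrane proteins that hold neighbouring cells together in the presence of calcium, and the classical members are anchored to actin through the catenins. Each cell type carries its own set, and cells tend to attach to cells that carry the same cadherin. In peripheral nerve, E-cadherin joins the turns of a single myelinating Schwann cell to each other, while N-cadherin forms contacts between Schwann cells and between Schwann cells and axons. Protocadherins are relatives of the classical cadherins that bind more weakly and are best known from the developing nervous system.

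The set of cadherins in Schwann cells differed before and after crush. In uncrushed Schwann cells the classical genes Cdh1 (E-cadherin), Cdh2 (N-cadherin) and Cdh11 (OB-cadherin) and the protocadherin gene Pcdh10 were all higher than at any day after crush, and on day 5 Cdh2 was lower by 3.27, Cdh11 by 4.50 and Pcdh10 by 4.67 on the log2 scale. Pcdh20, Cdh13 (T-cadherin) and Pcdh17 were higher at each day after crush, Pcdh20 with a log2 fold change of 4.95 on day 5. Cdh6 went down on day 3 and was above its uncrushed level on days 5 and 7. Cdh19 had the highest FPKM of all members in every Schwann cell library, at 111 to 212. Whole nerve showed the fall of Cdh1, Cdh2 and Pcdh10 as well, but not that of Cdh11 or the size of the rise of Pcdh20. Digestion and cell recovery, which differed between uncrushed and crushed nerves, may have a part in the levels of purified cells, and this was not tested.

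Levels are given below as FPKM, fragments scaled to gene length and library size, so that genes can be compared with each other. Changes are log2 fold changes from edgeR's quasi-likelihood test with its standard error and Benjamini-Hochberg adjusted p over all genes of a fit, and a gene was called at an adjusted p under 0.05. The expected counts of a library summed to between 10555067 and 27562637, with a median of 15740687. The log2 fold changes rest on TMM scaling and the FPKM on library totals. In whole nerve these scales stood apart, since the ratio of FPKM exceeded the TMM fold change by a median of 0.41 on the log2 scale over 13 members on day 3 and 0.40 over 14 on day 5, against −0.05 over 11 and 0.02 over 9 in Schwann cells. In bulk RNA, fewer cells of a type and less RNA per cell cannot be told apart.

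The markers of other cells differed in how far they were reduced in the purified cells. The 5 macrophage markers summed to 1.85 to 10.97 FPKM in Schwann cells. In whole nerve they summed to 92.1 to 106 FPKM before crush, 443 to 472 on day 3 and 264 to 286 on days 5 and 7, and 5 of 5 were called higher on days 3 and 5 and 4 on day 7 (edgeR). Their part in the changes of members in whole nerve was not tested. The 6 endothelial markers summed to 1.18 to 5.82 FPKM in Schwann cells and 59.9 to 74.6 in whole nerve. Replicate 2 of day 3 stood apart among the Schwann cell libraries, with 1.29 FPKM of the leukocyte gene Ptprc against 0.18 in replicate 1, and 0.67 against 0.10 of the endothelial gene Pecam1. The fibroblast list summed to 241 to 575 FPKM in Schwann cells and 3960 to 6005 in whole nerve. Of its genes Dcn was at 3.12 to 17.9 FPKM in Schwann cells, so most of the sum there came from others. Markers of pericytes and smooth muscle summed to 38.3 to 51.2 FPKM in uncrushed Schwann cells, to 8.59 to 18.4 after crush and to 243 to 364 in whole nerve. Among them Pdgfrb was at 33.7 and 29.1 FPKM in Schwann cells before crush and 3.06 and 3.74 on day 3. The 6 Schwann cell markers summed to 7346 to 7392 FPKM in uncrushed Schwann cells and to 3659 to 5976 after crush. In whole nerve that sum was higher before crush, at 12581 to 15681 FPKM, and was 2127 to 2233 on day 3 and 2572 to 4018 on days 5 and 7. Before crush Pdgfrb, the perineurial gene Itgb4 and the fibroblast gene Col1a2 were called higher in the purified cells than in the nerve (edgeR), Col1a2 being listed at 0.02 and 0 FPKM in uncrushed whole nerve. Each of the lists they come from summed to less in the purified cells than in the nerve. The 3 perineurial markers summed to 115 to 119.3 FPKM in uncrushed Schwann cells and 57.9 to 66.9 after crush, and to 152 to 277 in whole nerve. The 4 epithelial markers summed to 0.91 to 1.00 FPKM in uncrushed Schwann cells and 4.35 to 8.08 after crush, with the keratins at the floor in Schwann cells. Markers of satellite glia, skeletal muscle and neurons summed to at most 2.68, 1.18 and 6.55 FPKM in any Schwann cell library, and those of skeletal muscle to 13.6 and 227 in uncrushed whole nerve.

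**Figure D1:**
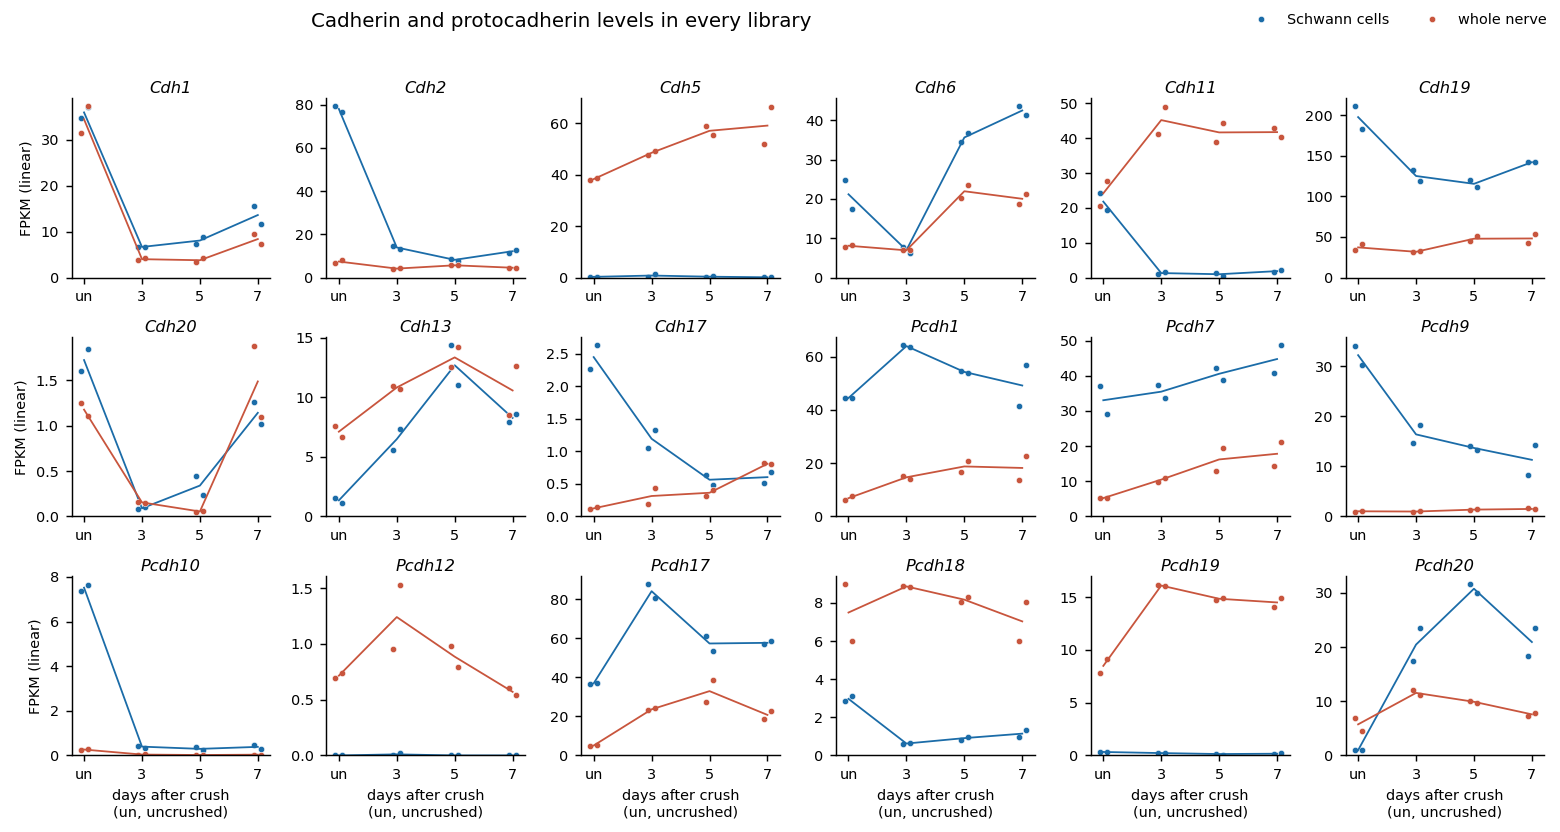
FPKM, on linear axes that start at 0, of the 18 members with a group mean of at least 1 FPKM, in uncrushed nerves (un) and 3, 5 and 7 days after crush. Points are the 2 libraries of a group and lines join group means. Cdh1, Cdh2, Cdh11 and Pcdh10 are high in Schwann cells only before crush, where Cdh2 is at 79.2 and 76.7, and Pcdh20 is at 0.99 and 0.97 there before crush and at 17.4 to 31.6 after it.

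Of the 22 members with enough counts to test in Schwann cells, 6 were higher and 11 were lower on day 3 than before crush, or 17 in all, where 26.9% and 25.7% of all 14961 tested genes were called higher and lower. On day 5 again 6 were higher and 11 lower, against 29% and 25.6% of all genes, and on day 7 6 were higher and 8 lower, against 25% and 21.9%. The members' median log2 fold change was −0.76 on day 3, −0.29 on day 5 and −0.47 on day 7, while the median over all genes tested was 0.00, 0.06 and 0.06. Between days 3 and 7, 6 members were higher on day 7 and 3 lower, beside 10.2% and 10.7% of all genes. With 1 library of either day left out fewer members were called, and fewer genes in general.

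The makeup of the summed level differed between stages. The 34 members summed to 545 and 494 FPKM in the uncrushed Schwann cell libraries and to between 369 and 426 in the 6 libraries after crush. Protocadherins made up 30.6% ± 0.62 (SD, n = 2) of that sum before crush, 57.6% ± 1.20 on day 3, 51.9% ± 0.24 on day 5 and 45.3% ± 3.73 on day 7. Cdh2 alone gave 15.0% ± 0.73 before crush and 2.14% ± 0.06 on day 5, and Pcdh17 gave 7.14% before crush and 21.9% on day 3. In whole nerve, where the sum was 190 and 210 FPKM before crush, protocadherins made up 20.6% ± 1.88 before crush and 36.4% ± 1.06 on day 3. These shares were not tested.

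**Figure D2:**
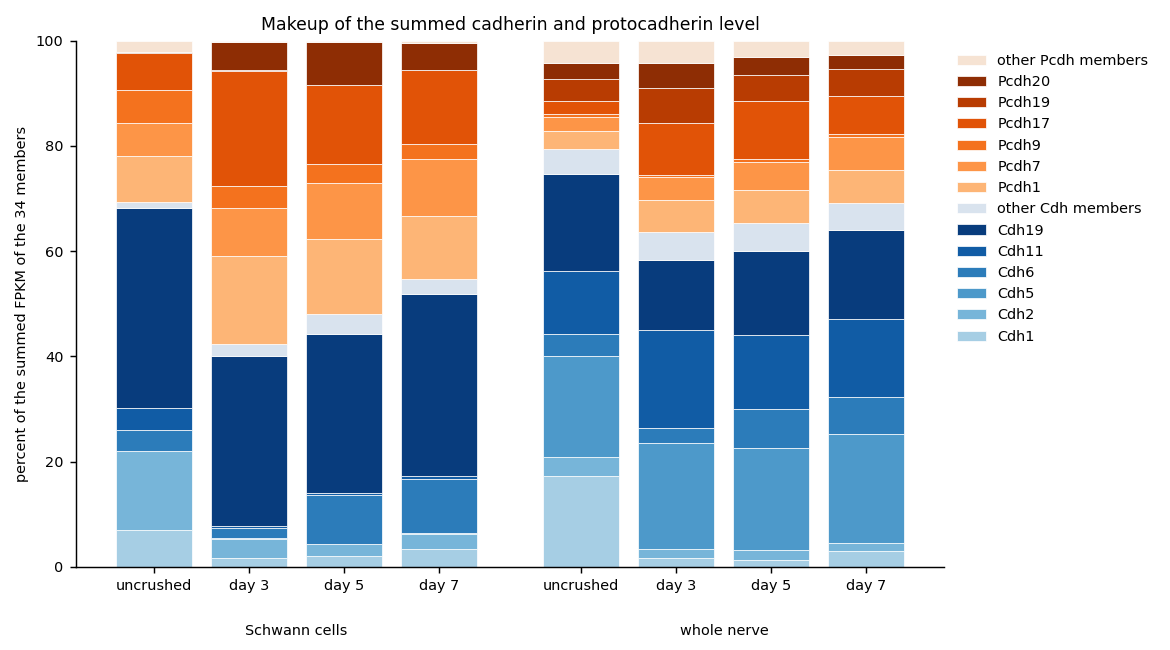
Stacked bars of the mean share of each member in the summed FPKM of the 34 members, in percent, for the 4 Schwann cell and the 4 whole nerve groups (n = 2 libraries each), with Cdh members in blue and Pcdh members in orange. The orange share in Schwann cells is 30.6% before crush and 57.6% on day 3, while Cdh5 and Cdh11 take up much of the blue share in whole nerve and little in injured Schwann cells.

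Cdh1 and Cdh2 are the classical cadherins of type I among the members with a group mean of at least 1 FPKM. Cdh1, which encodes E-cadherin of the myelin sheath, was at 34.8 and 37.1 FPKM in uncrushed Schwann cells, 6.70 and 6.62 on day 3, 7.33 and 8.79 on day 5 and 15.6 and 11.6 on day 7. Both uncrushed libraries lay above all 6 injured ones, and both day 7 libraries above those of days 3 and 5. The log2 fold change was −2.38 ± 0.15 on day 3 (adjusted p = 1.35e-06, edgeR), −2.18 ± 0.15 on day 5 and −1.44 ± 0.15 on day 7. From day 3 to day 7 Cdh1 rose again by 0.94 ± 0.15 (adjusted p = 0.00195, edgeR). In whole nerve Cdh1 was at 31.6 and 37.4 FPKM before crush, 3.84 and 4.16 on day 3, 3.30 and 4.24 on day 5 and 9.49 and 7.27 on day 7. The fall was larger there, with log2 fold changes of −3.51 ± 0.17 on day 3 (adjusted p = 9.59e-08, edgeR), −3.59 ± 0.17 on day 5 and −2.44 ± 0.16 on day 7. The difference between the tissues was called on day 3 (1.03 ± 0.23, adjusted p = 0.00464, edgeR) and on day 5 (1.29 ± 0.24, adjusted p = 0.000974).

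Cdh2, the gene of N-cadherin, was at 79.2 and 76.7 FPKM in uncrushed Schwann cells, 14.6 and 13.2 on day 3, 8.60 and 7.77 on day 5 and 11.5 and 12.8 on day 7. Both uncrushed libraries thus stood far above all 6 injured ones, and day 5 was the lowest stage. Its log2 fold change was −2.44 ± 0.11 on day 3 (adjusted p = 1.58e-07, edgeR), −3.27 ± 0.11 on day 5 (adjusted p = 7.39e-08) and −2.72 ± 0.11 on day 7. In whole nerve Cdh2 was at 6.81 and 7.99 FPKM before crush, 4.05 and 4.21 on day 3, 5.65 and 5.68 on day 5 and 4.52 and 4.54 on day 7. All 6 injured libraries lay below both uncrushed ones, with a log2 fold change of −1.25 ± 0.12 on day 3 (adjusted p = 1.82e-05, edgeR), −0.79 on day 5 and −1.11 on day 7. Before crush Cdh2 in Schwann cells exceeded whole nerve by 3.09 ± 0.11 on the log2 scale (adjusted p = 3.54e-11, edgeR), and on day 5 by 0.48 ± 0.10 (adjusted p = 0.0013). The change on day 5 differed between the tissues by −2.61 ± 0.14 (adjusted p = 3.64e-08, edgeR).

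Among the type II cadherins, Cdh19 is known as a marker of the Schwann cell lineage. It was at 212 and 183 FPKM in uncrushed Schwann cells, 132 and 118 on day 3, 119.9 and 111 on day 5 and 142 and 142 on day 7. The groups before and after crush did not overlap, but the fall was small beside that of Cdh2, with log2 fold changes of −0.61 ± 0.10 on day 3 (adjusted p = 0.000839, edgeR), −0.83 ± 0.10 on day 5 and −0.52 ± 0.10 on day 7. In whole nerve Cdh19 was at 33.4 and 40.9 FPKM before crush, 31.0 and 32.4 on day 3, 44.5 and 51.1 on day 5 and 42.8 and 53.4 on day 7. Day 3 was the only stage called there against uncrushed nerve (−0.61 ± 0.12, adjusted p = 0.00237, edgeR), and with counts scaled to library totals the value was −0.20 and not called (adjusted p = 0.203). Schwann cells exceeded whole nerve in Cdh19 at each stage, by 2.14 ± 0.12 before crush (adjusted p = 3.34e-09, edgeR), 2.04 on day 3, 1.21 on day 5 and 1.51 on day 7.

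Cdh6, which encodes K-cadherin of kidney and neural crest, was at 24.8 and 17.5 FPKM in uncrushed Schwann cells, 7.81 and 6.13 on day 3, 34.6 and 36.7 on day 5 and 43.7 and 41.3 on day 7. It was thus lowest on day 3 and highest on day 7, with no overlap between the groups. Against uncrushed cells it changed by −1.56 ± 0.16 on day 3 (adjusted p = 2.89e-05, edgeR), 0.73 ± 0.15 on day 5 (adjusted p = 0.00269) and 0.97 ± 0.15 on day 7 (adjusted p = 0.000642). From day 3 to day 7 the rise was 2.52 ± 0.16 (adjusted p = 1.42e-05, edgeR). Whole nerve had 7.87 and 8.31 FPKM before crush, 6.93 and 6.91 on day 3, 20.3 and 23.6 on day 5 and 18.7 and 21.4 on day 7. Day 3 was again the lowest stage, while the means of days 5 and 7 came in the other order, with log2 fold changes of −0.63 ± 0.11 on day 3 (adjusted p = 0.00117, edgeR), 1.04 ± 0.11 on day 5 (adjusted p = 4.33e-05) and 0.90 ± 0.11 on day 7. The fall on day 3 was not called under library totals (−0.22, adjusted p = 0.129). On day 3 the fall in Schwann cells was larger, with a difference between the tissues of −1.03 ± 0.21 (adjusted p = 0.00215, edgeR).

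Cdh11, the gene of OB-cadherin, is known from osteoblasts, fibroblasts and other mesenchymal cells. In uncrushed Schwann cells it was at 24.3 and 19.3 FPKM, followed by 1.09 and 1.48 on day 3, 1.40 and 0.50 on day 5 and 1.51 and 2.18 on day 7. The uncrushed libraries thus stood far above the injured ones, and the log2 fold change was −3.95 ± 0.34 on day 3 (adjusted p = 1.02e-05, edgeR), −4.50 ± 0.36 on day 5 and −3.58 ± 0.34 on day 7. Whole nerve was at 20.6 and 27.8 FPKM before crush, 41.4 and 49.1 on day 3, 38.8 and 44.5 on day 5 and 43.0 and 40.5 on day 7. All 6 injured libraries lay above both uncrushed ones. The test called day 3 (0.46 ± 0.14, adjusted p = 0.0205, edgeR), which was not called without replicate 1 of uncrushed nerve (0.27) or without replicate 2 of day 3 (0.36). It was also not called in the fit of all 16 libraries (0.53, adjusted p = 0.0874, edgeR). Days 5 and 7, each at 0.35 ± 0.14, were not called (adjusted p = 0.0701 and 0.0832, edgeR), but were called by DESeq2 (adjusted p = 0.0360 and 0.0481), at 0.58 without replicate 2 of uncrushed nerve, and under library totals at 0.76. The difference between the tissues was −4.51 ± 0.37 on day 3 (adjusted p = 8.96e-07, edgeR) and −4.97 ± 0.39 on day 5. Before crush Cdh11 did not pass the test between Schwann cells and whole nerve (−0.46 ± 0.24, adjusted p = 0.111, edgeR), but without a filter on low counts it was called lower in the cells (adjusted p = 0.000947). Pdgfrb, 1 gene of the pericyte list, was, like Cdh11, highest in Schwann cells before crush. The list as a whole summed to 38.3 to 51.2 FPKM in uncrushed Schwann cells and to more in uncrushed whole nerve, at 243 to 299. The 5 fibroblast markers summed to 323 to 575 FPKM in uncrushed Schwann cells, 277 to 289 on day 3, 274 to 356 on day 5 and 241 to 376 on day 7, and of them Col1a1 was called lower on day 3, Col1a1 and Dcn on day 5 and 0 on day 7 (edgeR). The part of other cell types in the level of Cdh11 in uncrushed Schwann cells was not tested.

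Cdh5, which encodes VE-cadherin of endothelial junctions, was at 0.27 FPKM in both uncrushed Schwann cell libraries, 0.13 and 1.42 on day 3, 0.25 and 0.41 on day 5 and 0.12 and 0.07 on day 7. These levels came from 2 to 92 counts, and the highest was that of the day 3 library with the most Pecam1. The log2 fold change on day 3 was 1.63 ± 0.87 (adjusted p = 0.142, edgeR), or −0.94 without that library and 2.42 (called, adjusted p = 0.00808) without the other library of day 3. It was also called without a filter on low counts (adjusted p = 0.0183) and in the fit of all 16 libraries (adjusted p = 0.0498). In whole nerve Cdh5 was at 38.1 and 38.6 FPKM before crush, 47.7 and 49.4 on day 3, 58.8 and 55.4 on day 5 and 51.8 and 66.4 on day 7, and no stage was called. The cells lay below whole nerve at each stage, with a log2 difference of −7.44 ± 0.48 before crush (adjusted p = 9.46e-09, edgeR), −5.70 on day 3, −7.49 on day 5 and −9.24 on day 7. Pcdh12, a protocadherin of endothelial cells, had at most 2 counts in any Schwann cell library. In whole nerve it was at 0.69 and 0.74 FPKM before crush, 0.95 and 1.53 on day 3, 0.98 and 0.79 on day 5 and 0.60 and 0.54 on day 7. Against a floor of 3 counts per library, Pcdh12 in Schwann cells was below whole nerve, at least 15.6-fold lower before crush and at least 32.0-fold lower on day 3.

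Cdh20, another type II cadherin, was low throughout, and in both tissues it fell on days 3 and 5 and rose again from day 3 to day 7. In Schwann cells it was at 1.60 and 1.84 FPKM before crush, 0.08 and 0.10 on day 3, 0.44 and 0.24 on day 5 and 1.26 and 1.02 on day 7. It was thus nearly lost on day 3 and most of its level was back on day 7. The log2 fold change was −4.18 ± 0.40 on day 3 (adjusted p = 1.97e-05, edgeR) and −2.36 ± 0.35 on day 5 (adjusted p = 0.000344), while day 7 did not pass the test (−0.62 ± 0.32, adjusted p = 0.132). Whole nerve had 1.25 and 1.10 FPKM before crush, 0.16 and 0.15 on day 3, 0.05 and 0.06 on day 5 and 1.88 and 1.09 on day 7. There the lowest stage was day 5, at −4.85 ± 0.44 (adjusted p = 1.3e-05, edgeR), and the rise from day 3 to day 7 was 3.27 ± 0.36 (adjusted p = 0.000178), beside 3.55 ± 0.40 (adjusted p = 0.000321) in Schwann cells. On day 5 Cdh20 in Schwann cells exceeded whole nerve by 2.61 ± 0.50 (adjusted p = 0.000507, edgeR).

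The remaining cadherins above 1 FPKM are atypical. Cdh13, the gene of T-cadherin, which is held to the membrane by a lipid anchor and lacks the tail that binds catenins, was at 1.54 and 1.17 FPKM in uncrushed Schwann cells, 5.62 and 7.37 on day 3, 14.4 and 11 on day 5 and 7.92 and 8.63 on day 7. All 6 injured libraries lay above both uncrushed ones, with log2 fold changes of 2.36 ± 0.22 (adjusted p = 1.5e-05, edgeR), 3.25 ± 0.22 (adjusted p = 2.1e-06) and 2.59 ± 0.22 (adjusted p = 1.32e-05). Whole nerve had 7.60 and 6.64 FPKM before crush, 10.98 and 10.7 on day 3, 12.5 and 14.2 on day 5 and 8.53 and 12.6 on day 7. There day 5 alone was called (0.51 ± 0.16, adjusted p = 0.0321, edgeR), and that call was lost when any 1 of the 4 libraries compared was left out, at 0.43 to 0.62. The change in Schwann cells exceeded that in whole nerve by 2.61 ± 0.30 on day 5 (adjusted p = 1.78e-05, edgeR). Before crush Cdh13 in Schwann cells lay below whole nerve, with a log2 difference of −2.73 ± 0.23 (adjusted p = 1.4e-07, edgeR), and on day 5 the test did not call it.

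Cdh17, which encodes LI-cadherin of liver and intestine, was at 2.27 and 2.63 FPKM in uncrushed Schwann cells, 1.06 and 1.33 on day 3, 0.64 and 0.49 on day 5 and 0.52 and 0.69 on day 7. It stepped down in the cells, with log2 fold changes of −0.98 ± 0.24 on day 3 (adjusted p = 0.00739, edgeR), a call lost without replicate 1 of day 3 (−0.84), −2.13 ± 0.26 on day 5 (adjusted p = 0.000108) and −2.07 ± 0.26 on day 7. In whole nerve, at 0.11 to 0.82 FPKM, the order was the opposite, with 0.11 and 0.14 before crush and 0.82 and 0.80 on day 7. In whole nerve its log2 fold change on day 7 was 1.80 ± 0.54 (adjusted p = 0.0288, edgeR), and the call was lost when any 1 of the 4 libraries was left out (1.60 to 1.98). On day 7 the 2 changes differed by −3.98 ± 0.56 (adjusted p = 0.00012, edgeR).

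**Figure D3:**
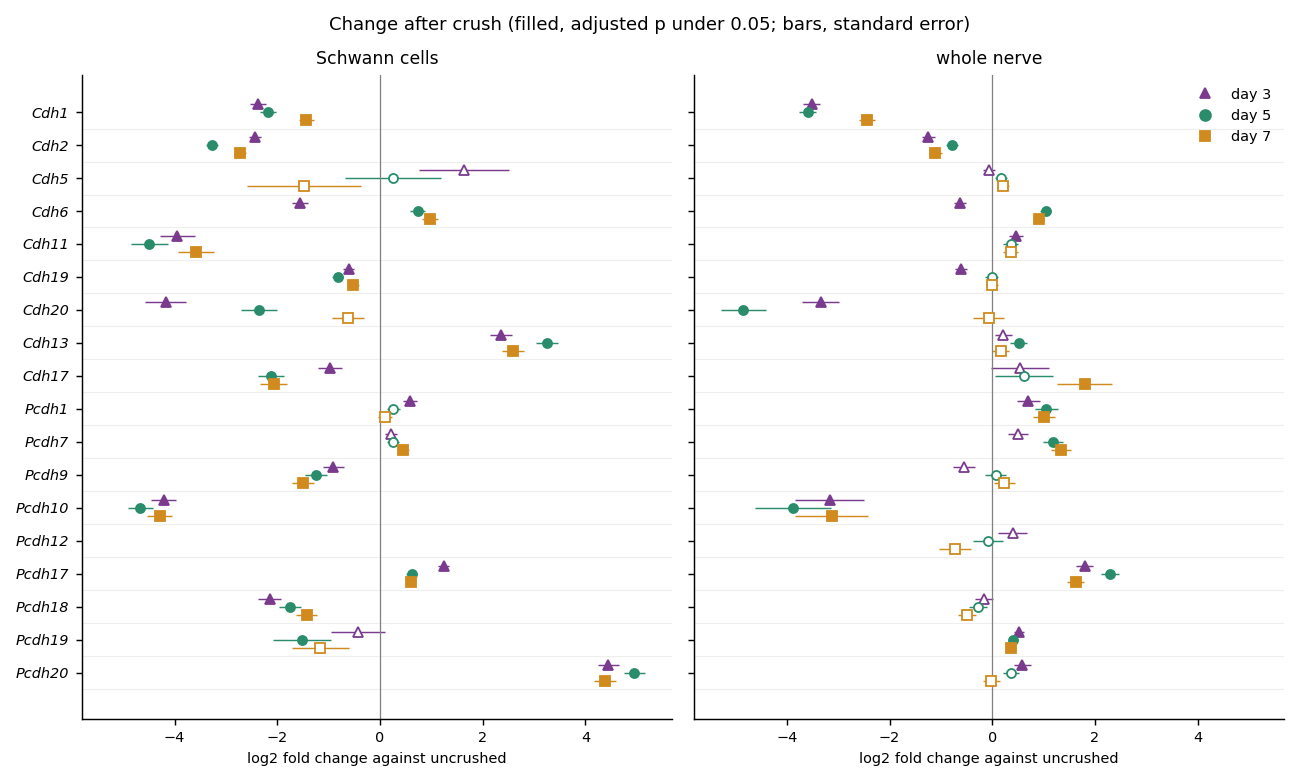
Log2 fold change against uncrushed (x axis) with its standard error for the 18 members, in Schwann cells and in whole nerve, on days 3, 5 and 7. Filled symbols have an adjusted p under 0.05 (edgeR), values with a group at the floor are left out, and Pcdh20 is the farthest to the right in Schwann cells, at 4.38 to 4.95, and near 0 in whole nerve on day 7.

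The protocadherins went in both directions. Pcdh20 was at 0.99 and 0.97 FPKM in uncrushed Schwann cells, 17.4 and 23.6 on day 3, 31.6 and 30.0 on day 5 and 18.3 and 23.6 on day 7. All 6 injured libraries thus stood far above both uncrushed ones, with the highest values on day 5. Its log2 fold change was 4.45 ± 0.21 on day 3 (adjusted p = 2.12e-07, edgeR), 4.95 ± 0.21 on day 5 (adjusted p = 1.58e-07) and 4.38 ± 0.21 on day 7 (adjusted p = 4.95e-07). Whole nerve, in contrast, had 6.92 and 4.57 FPKM before crush, 12.02 and 11.1 on day 3, 10.1 and 9.71 on day 5 and 7.28 and 7.90 on day 7. Its one call was on day 3 (0.59 ± 0.16, adjusted p = 0.0119, edgeR), which was lost without replicate 2 of uncrushed nerve (0.34) or replicate 1 of day 3 (0.52). The difference between the tissues was 3.76 ± 0.29 on day 3 (adjusted p = 4.4e-07, edgeR), 4.46 ± 0.29 on day 5 (adjusted p = 9.68e-08) and 4.28 ± 0.29 on day 7. Pcdh20 in Schwann cells lay below whole nerve before crush (−2.88 ± 0.23, adjusted p = 6.54e-08, edgeR) and above it on day 3 (0.88 ± 0.17, adjusted p = 0.000582).

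Pcdh17, a protocadherin known from axons and synapses, was at 36.8 and 37.2 FPKM in uncrushed Schwann cells, 87.8 and 80.7 on day 3, 61.2 and 53.7 on day 5 and 56.9 and 58.6 on day 7. The groups before and after crush did not overlap, and day 3 lay above days 5 and 7. Its log2 fold change was 1.24 ± 0.11 on day 3 (adjusted p = 8.67e-06, edgeR), 0.61 ± 0.10 on day 5 and 0.60 ± 0.10 on day 7. In whole nerve Pcdh17 was at 4.73 and 5.47 FPKM before crush, 23.1 and 24.3 on day 3, 27.2 and 38.8 on day 5 and 18.7 and 22.9 on day 7. The rise was larger there, at 1.80 ± 0.17 (adjusted p = 1.11e-05, edgeR), 2.29 ± 0.17 (adjusted p = 2.9e-06) and 1.62 ± 0.17 (adjusted p = 4.46e-05), and the difference was called on day 5 (−1.80 ± 0.21, adjusted p = 2.22e-05).

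Pcdh1 and Pcdh7 were higher in Schwann cells than in the nerve at all 4 stages. Their log2 fold change after crush was higher in whole nerve than in Schwann cells on days 5 and 7, and the difference was not called on day 3. The difference for Pcdh1 was −0.92 ± 0.28 on day 5 (adjusted p = 0.0268, edgeR), which was lost in 6 of 8 fits with 1 library left out (−0.73 to −0.94), and −1.02 ± 0.29 on day 7, which was lost in 3 (−0.60 to −0.86). For Pcdh7 it was −1.05 ± 0.25 on day 5 (adjusted p = 0.00592, edgeR). Pcdh1 was at 44.7 and 44.3 FPKM in uncrushed Schwann cells, 64.4 and 63.5 on day 3, 54.5 and 54.0 on day 5 and 41.5 and 56.9 on day 7. Only day 3 was called in the cells (0.58 ± 0.13, adjusted p = 0.0054, edgeR), and on day 7 the libraries spanned the uncrushed level. In whole nerve Pcdh1 was at 6.05 and 7.71 FPKM before crush, 15.3 and 14.1 on day 3, 16.9 and 20.7 on day 5 and 13.6 and 22.8 on day 7. There the log2 fold change was 0.70 ± 0.22 on day 3 (adjusted p = 0.0257, edgeR), 1.05 ± 0.22 on day 5 (adjusted p = 0.00392) and 1.00 ± 0.22 on day 7 (adjusted p = 0.00636). The calls of days 3 and 7 were lost without replicate 1 of uncrushed nerve (0.53 and 0.83), and that of day 3 also without either library of day 3 (0.64 and 0.77).

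Pcdh7 was at 37.0 and 29.1 FPKM in uncrushed Schwann cells, 37.3 and 33.7 on day 3, 42.4 and 38.8 on day 5 and 40.8 and 48.8 on day 7. Its groups overlapped on day 3 and not later. The log2 fold change was 0.22 ± 0.12 on day 3 (adjusted p = 0.15, edgeR), 0.26 ± 0.12 on day 5 (adjusted p = 0.0889) and 0.45 ± 0.12 on day 7 (adjusted p = 0.0112). These calls rested on single libraries, since without replicate 1 of the uncrushed cells days 3 and 5 were called (0.37 and 0.41), and day 7 was not called without replicate 2 of the uncrushed cells (0.29) or of day 7 (0.38). Whole nerve had 5.16 and 5.30 FPKM before crush, 9.93 and 11.1 on day 3, 13.0 and 19.4 on day 5 and 14.4 and 21.3 on day 7. Days 5 and 7 were called there, at 1.19 ± 0.19 (adjusted p = 0.000859, edgeR) and 1.33 ± 0.20 (adjusted p = 0.000508).

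Pcdh10, which is known to act in the growth of axons, was at 7.38 and 7.65 FPKM in uncrushed Schwann cells, 0.44 and 0.35 on day 3, 0.36 and 0.23 on day 5 and 0.47 and 0.30 on day 7. The groups before and after crush were thus far apart, and the 3 injured stages overlapped each other. Its log2 fold change was −4.22 ± 0.23 on day 3 (adjusted p = 5.41e-07, edgeR), −4.67 ± 0.25 on day 5 (adjusted p = 5.17e-07) and −4.29 ± 0.24 on day 7 (adjusted p = 1.15e-06). Whole nerve had 0.25 and 0.28 FPKM before crush and 0.01 to 0.06 in the 6 injured libraries, with log2 fold changes of −3.16 ± 0.67 (adjusted p = 0.00326, edgeR), −3.89 ± 0.74 (adjusted p = 0.00227) and −3.13 ± 0.71 (adjusted p = 0.00719). The call on day 7 was lost without replicate 2 of day 7 (−2.93). Before crush Pcdh10 in Schwann cells exceeded whole nerve by 4.52 ± 0.31 (adjusted p = 1.79e-08, edgeR).

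Pcdh9 was at 34.1 and 30.3 FPKM in uncrushed Schwann cells, 14.6 and 18.2 on day 3, 14.2 and 13.2 on day 5 and 8.37 and 14.3 on day 7. All 6 injured libraries lay below both uncrushed ones, and the log2 fold change was −0.91 ± 0.21 on day 3 (adjusted p = 0.00457, edgeR), −1.24 ± 0.21 on day 5 and −1.51 ± 0.21 on day 7. In whole nerve it was at 0.96 and 1.12 FPKM before crush, 0.96 and 1.02 on day 3, 1.30 and 1.45 on day 5 and 1.62 and 1.40 on day 7, with no stage called against uncrushed nerve. Pcdh9 was higher in Schwann cells at each stage, by 4.54 ± 0.23 before crush (adjusted p = 1.01e-09, edgeR), 4.07 on day 3, 3.10 on day 5 and 2.69 on day 7.

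Pcdh18 and Pcdh19 belonged to whole nerve more than to the cells, with a called difference at each stage. Pcdh18 was at 2.84 and 3.10 FPKM in uncrushed Schwann cells, 0.62 and 0.63 on day 3, 0.83 and 0.99 on day 5 and 0.97 and 1.32 on day 7. It fell in the cells at each day without overlap, with log2 fold changes of −2.15 ± 0.22 (adjusted p = 2.73e-05, edgeR), −1.75 ± 0.21 (adjusted p = 0.0001) and −1.43 ± 0.21 (adjusted p = 0.000457). In whole nerve it was at 6.01 to 8.99 FPKM in all 8 libraries and was called at no stage against uncrushed nerve. Pcdh19, which is known to form a complex with N-cadherin, was at 0.35 and 0.31 FPKM in uncrushed Schwann cells, 0.24 and 0.21 on day 3, 0.18 and 0.09 on day 5 and 0.14 and 0.19 on day 7. Its one call there was on day 5 (−1.52 ± 0.56, adjusted p = 0.0436, edgeR), which was lost without replicate 2 of day 5 (−0.84) or either uncrushed library (−1.45 and −1.60), and with only the compared groups fitted (adjusted p = 0.0592). In whole nerve Pcdh19 was at 7.84 and 9.12 FPKM before crush, 16.2 and 16 on day 3, 14.7 and 14.9 on day 5 and 14.0 and 15.0 on day 7. The rise was 0.52 ± 0.09 on day 3 (adjusted p = 0.00119, edgeR), 0.40 ± 0.09 on day 5 and 0.37 ± 0.09 on day 7 on the TMM scale, and without replicate 1 of uncrushed nerve days 5 and 7 were not called (0.30 and 0.27).

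The other 16 members had a mean below 1 FPKM in every group. These were Cdh3, Cdh4, Cdh7, Cdh8, Cdh9, Cdh10, Cdh12, Cdh15, Cdh16, Cdh18, Cdh22, Cdh23, Cdh24, Cdh26, Pcdh8 and Pcdh15. Their highest value in any library was 1.01 FPKM, and the median of their highest values was 0.19. Cdh16 had 0 counts in every library, and Cdh22 at most 3. Among those called, Cdh18 had 5 and 2 counts in uncrushed whole nerve, 79 and 68 on day 3, 54 and 65 on day 5 and 41 and 50 on day 7, and at most 3 in any Schwann cell library. It rose in whole nerve by 3.40 ± 0.40 on day 3 (adjusted p = 6.83e-05, edgeR), and the Schwann cells of day 3 were at least 24.7-fold lower. Cdh3, the gene of P-cadherin, had 0 counts in both uncrushed Schwann cell libraries and 10 and 36 on day 3, at least 4.47-fold higher, with 7 and 9 on day 5 and 4 and 0 on day 7. Cdh24 was called higher in Schwann cells on days 3 and 5, with 5 and 8 counts before crush, 17 and 41 on day 3 and 29 and 22 on day 5. The counts of Cdh4, the gene of R-cadherin, were 18 and 13 in uncrushed Schwann cells, 12 and 8 on day 3, 40 and 43 on day 5 and 98 and 53 on day 7, a log2 fold change of 2.04 ± 0.42 on day 7 (adjusted p = 0.00326, edgeR). Pcdh8 had 13 and 10 counts before crush and 0 and 2 on day 3 in Schwann cells, at least 5.55-fold lower, and 12 and 8 on day 7.

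In whole nerve, 21 members had enough counts. On day 3, 6 were higher and 6 lower than in uncrushed nerve, against 23.1% and 22.5% of the 15831 genes tested, and on day 5 7 were higher and 4 lower, against 18.9% and 19.5%. On day 7 the numbers were 7 and 3, against 15.4% and 15.9% of all genes. Scaled to library totals in place of TMM, which raised the median of all genes by 0.41 on day 3, 0.40 on day 5 and 0.41 on day 7, the split was 10 higher and 4 lower on day 3, 11 and 4 on day 5 and 12 and 3 on day 7. Between days 3 and 7, 7 members were higher on day 7 and 2 lower, beside 9.85% and 11.4% of all genes. With 1 library of either day left out fewer members were called, and fewer genes in general. Cdh1, Cdh2 and Pcdh10 were lower and Cdh18, Pcdh1, Pcdh17 and Pcdh19 higher at all 3 days. The members' median log2 fold change was −0.07 on day 3, 0.17 on day 5 and 0.22 on day 7, with 0.00, −0.01 and 0.02 over all genes.

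Schwann cells and whole nerve of the same stage were compared in a fit of all 16 libraries, in which 24 members were tested. Before crush 10 members were higher and 8 lower in Schwann cells, where 29.1% and 35.3% of 16829 genes were called higher and lower. On day 3 it was 11 and 7, against 24.5% and 32.8%, on day 5 12 and 6, against 23.2% and 28.4%, and on day 7 10 and 6, against 22.4% and 28.7%. Cdh2, Cdh19, Pcdh1, Pcdh7, Pcdh9, Pcdh10 and Pcdh17 were higher in Schwann cells at all 4 stages. Cdh5, Cdh18, Pcdh12, Pcdh18 and Pcdh19 were lower at all 4. Pcdh20 was called lower before crush and higher after it, and Cdh11 was called lower at each day after crush, and before crush only without a filter on low counts.

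The change from uncrushed was then compared between the tissues in the same fit. On day 3 the change in Schwann cells was above that in whole nerve for 4 members and below it for 8, where 12.3% and 13.7% of all genes were called. On day 5 the numbers were 4 and 11, against 12.6% and 14.9%, and on day 7 3 and 10, against 11.6% and 14.4%. With 1 library left out fewer members were called on day 3, and fewer genes in general. Cdh1, Cdh13 and Pcdh20 were above and Cdh2, Cdh11, Cdh17, Pcdh17, Pcdh18 and Pcdh19 below at all 3 days, although on day 3 the calls of Cdh17, Pcdh17 and Pcdh19 were lost in 7, 6 and 7 of the 8 fits that left out 1 library, and that of Cdh17 also by DESeq2 (adjusted p = 0.0612). For Cdh1 the difference is between falls in both tissues, and for Pcdh17 between rises in both.

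**Figure D4:**
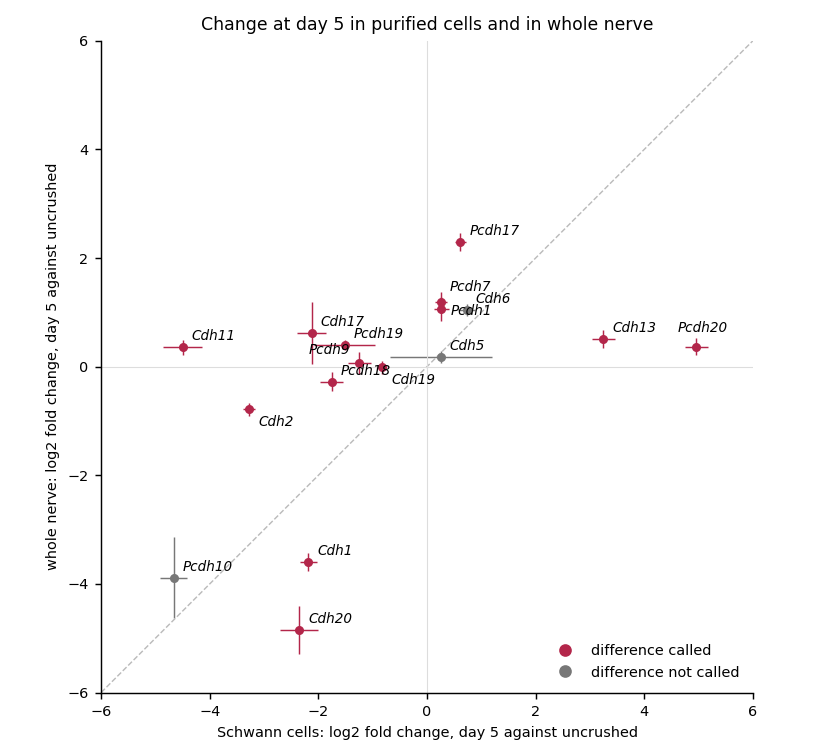
Log2 fold change on day 5 against uncrushed in Schwann cells (x axis) and in whole nerve (y axis), with standard errors as bars and the dashed line where both are equal. Red members had a called difference between the tissues, Cdh11 lies at −4.50 in Schwann cells and 0.35 in whole nerve, and Pcdh20 lies at 4.95 on the x axis.

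Partners of the cadherins were read from lists of junction proteins, further cadherin relatives and transcription factors. Of 13 tested catenins and junction partners in Schwann cells, 5 were higher and 4 lower on day 3, 4 and 3 on day 5 and 4 and 1 on day 7, with a median log2 fold change of −0.11, 0.06 and −0.05. Over all genes 26.9% and 25.7% were called on day 3, 29% and 25.6% on day 5 and 25% and 21.9% on day 7. In whole nerve 2 of 14 were higher and 8 lower on day 3, 4 and 6 on day 5 and 2 and 7 on day 7, where 23.1% and 22.5%, 18.9% and 19.5% and 15.4% and 15.9% of all genes were called. Ctnnb1, the gene of beta-catenin, was at 49.7 and 49.5 FPKM in uncrushed Schwann cells, 115 and 111 on day 3, 102 and 112 on day 5 and 110.0 and 102 on day 7. It rose without overlap, by 0.97 ± 0.09 on day 3 (adjusted p = 1.55e-05, edgeR) and by 0.79 on days 5 and 7. Ctnna1, the gene of alpha-catenin, which links beta-catenin to actin, was at 241 and 197 FPKM before crush and 202 and 185 on day 3, and Ctnnd1, the gene of p120-catenin, was at 74.3 and 64.0 and then 76.4 and 71.3. Neither passed the test on day 3. The related alpha-catenin gene Ctnna3 went from 85.2 and 72.9 FPKM before crush to 12.7 and 11.9 on day 3, 22.1 and 21.1 on day 5 and 28.3 and 29.5 on day 7. That was a log2 fold change of −2.61 ± 0.11 on day 3 (adjusted p = 1.06e-07, edgeR), −1.82 on day 5 and −1.42 on day 7, and in whole nerve it was −3.29 on day 3. Ctnnd2, a relative of p120-catenin, was at 0.26 and 0.21 FPKM before crush and 1.34 and 1.25 on day 3, with a rise of 2.51. Jup, the gene of plakoglobin, was at 17.9 and 19.3 FPKM before crush and 23.7 and 22.5 on day 3 (0.34, adjusted p = 0.022, edgeR), a call lost by DESeq2 (adjusted p = 0.0613), by upper quartile scaling and without either library of day 3 (0.30 and 0.37) or replicate 1 of the uncrushed cells (0.25). Pkp1, a desmosomal plakophilin, was at 0.02 FPKM in both uncrushed libraries and 2.34 and 1.82 on day 3.

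Of 46 tested relatives, which include the clustered protocadherins, 7 were higher and 24 lower in Schwann cells on day 3, 10 and 19 on day 5 and 9 and 16 on day 7. Over all genes 26.9% were higher and 25.7% lower on day 3, 29% and 25.6% on day 5 and 25% and 21.9% on day 7. The relatives' median log2 fold change was −0.79, −0.45 and −0.23. In whole nerve 4 of 52 relatives were higher and 15 lower on day 3 (all genes 23.1% and 22.5%), 6 and 9 on day 5 (18.9% and 19.5%) and 4 and 5 on day 7 (15.4% and 15.9%). Reads of the clustered genes can be split between near-identical copies, so the calls of single ones are uncertain. Celsr2, a cadherin of planar cell polarity, was at 19.1 and 19.9 FPKM in uncrushed Schwann cells, 52.4 and 53.1 on day 3, 71.6 and 75.6 on day 5 and 69.7 and 80.2 on day 7, and rose by 1.49, 1.89 and 1.90 on the log2 scale. Fat4, a large atypical cadherin of the same signaling, was at 5.92 and 6.48 FPKM before crush, 3.10 and 2.69 on day 3, 1.84 and 1.45 on day 5 and 1.05 and 1.80 on day 7, with log2 fold changes of −1.05, −1.95 and −2.18. Fat1 was at 42.1 and 39.5 FPKM before crush and 35.7 and 32.4 on day 3, which edgeR did not call (−0.22 ± 0.10, adjusted p = 0.0853) and DESeq2 did (adjusted p = 0.0494). Cdhr5, a cadherin of microvilli, was at 0.47 and 0.28 FPKM before crush and 2.97 and 2.04 on day 3, a rise of 2.75. Clstn1, a calsyntenin, was at 23.9 and 25.4 FPKM before crush and 18.9 and 20.7 on day 3. It was not called on day 3 and was called lower on day 5 (−0.30, adjusted p = 0.0372, edgeR) and day 7 (−0.36, adjusted p = 0.0191). The call of day 5 was lost without replicate 2 of the uncrushed cells (−0.25) or either library of day 5 (−0.25 and −0.33), and that of day 7 without replicate 2 of the uncrushed cells (−0.31) or of day 7 (−0.30). Clstn3 was at 0.25 and 0.62 FPKM before crush and 0 and 0.01 on day 3.

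Of 8 transcription factors known to act on cadherin genes, 5 had enough counts in Schwann cells, where 1 was higher and 2 lower on days 3 and 5 and 1 and 1 on day 7. In whole nerve the same counts were found among 7. Over all genes the share called in a direction was 21.9% to 29% in the Schwann cell comparisons and 15.4% to 23.1% in those of whole nerve. Sox2, a factor of immature Schwann cells known to direct N-cadherin to cell contacts, was at 25.9 and 19.0 FPKM before crush, 48.9 and 47.9 on day 3, 49.4 and 42.7 on day 5 and 42.0 and 53.8 on day 7. It rose by 1.16 ± 0.16 on day 3 (adjusted p = 0.00022, edgeR), 1.02 on day 5 and 1.06 on day 7, while Cdh2 fell at the same days. In whole nerve Sox2 was at 0.78 and 1.20 FPKM before crush and 13.3 and 16.04 on day 3, a rise of 3.52. The repressors Zeb1 and Zeb2 fell in Schwann cells on day 3. Zeb1 went from 55.3 and 41.5 to 23.3 and 20.7 FPKM (−1.08), and Zeb2 from 490 and 390.4 to 282 and 252 (−0.45 ± 0.11, adjusted p = 0.00731, edgeR), or −0.39 and not called without replicate 2 of day 3. Snai2 was at 0.62 to 1.49 FPKM in all Schwann cell libraries and at 22.2 to 35.04 in whole nerve. Twist1 and Twist2 were at or below 0.11 FPKM in Schwann cells, and at 2.95 to 5.90 and 3.38 to 5.46 in whole nerve.

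**Figure D5:**
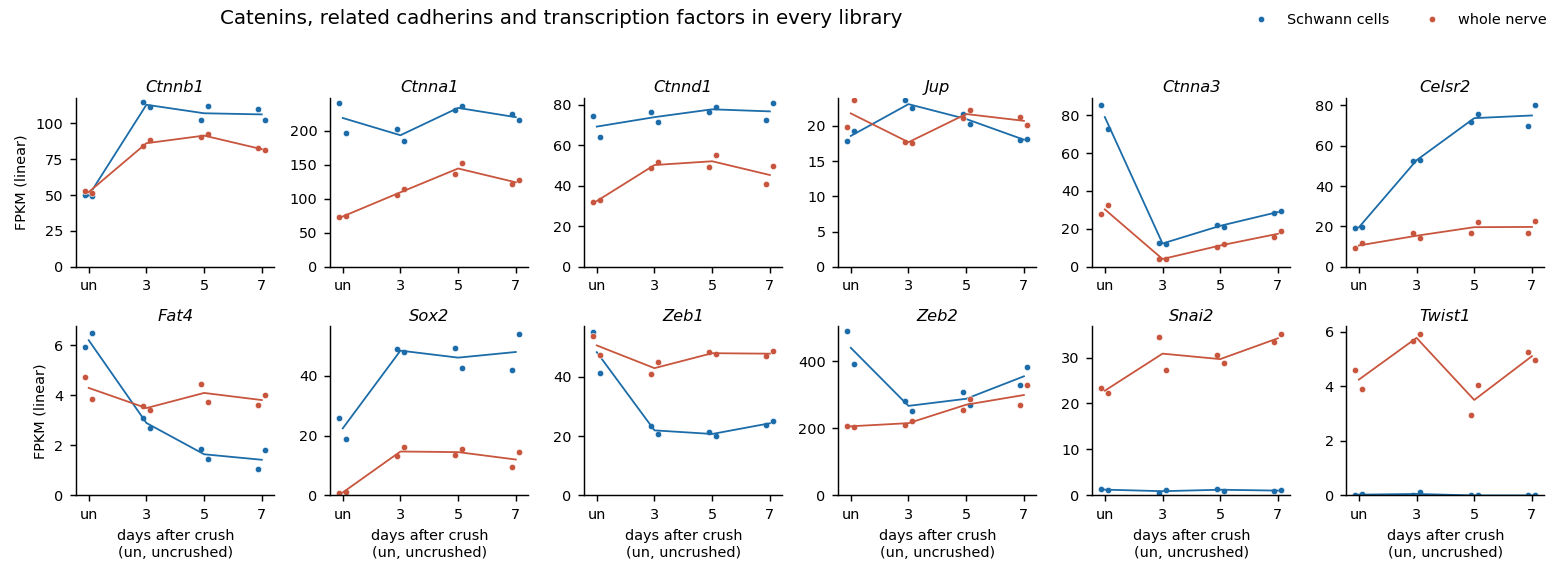
FPKM, on linear axes that start at 0, of 12 partner genes in the 16 libraries, by stage (un, uncrushed), with points for libraries and lines through group means. Ctnnb1 and Celsr2 are higher after crush in Schwann cells, Ctnna3 is at 85.2 and 72.9 before crush and 12.7 and 11.9 on day 3, and Snai2 and Twist1 are high in whole nerve and low in Schwann cells.

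Several members lie side by side in the rat genome. In the gene order of the RefSeq assembly GRCr8, which holds all 34 members, no other protein-coding gene lies between Cdh1 and Cdh3, between Cdh5 and Cdh11 or between Cdh7 and Cdh19. Pcdh8, Pcdh17, Pcdh20 and Pcdh9 follow each other on 1 chromosome, with 3, 3 and 1 protein-coding genes between them. Neighbours went in different directions, since in Schwann cells Pcdh17 and Pcdh20 rose and Pcdh9 fell at all 3 days. Cdh1 fell on day 3 while its neighbour Cdh3 was called higher there, from few counts.

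Promoter sequences from RefSeq were at hand for 23 of the 34 members, and 4 are shown because they belong to the members with the highest level, the turn in direction, and the strong fall and rise in Schwann cells. Each line gives the 150 bases before the annotated gene start in the GRCr8 build, 5′ to 3′ on the strand of the gene, with every CG dinucleotide in capitals. The counts were made on another build, Rnor_6.0. The stretches are chr13:28533754-28533903 on the minus strand for Cdh19, chr2:63952288-63952437 on the minus strand for Cdh6, chr2:130553288-130553437 on the plus strand for Pcdh10 and chr15:70840299-70840448 on the minus strand for Pcdh20.
Cdh19: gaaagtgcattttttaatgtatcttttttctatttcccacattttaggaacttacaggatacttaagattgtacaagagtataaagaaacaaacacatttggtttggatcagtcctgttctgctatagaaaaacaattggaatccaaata
Cdh6: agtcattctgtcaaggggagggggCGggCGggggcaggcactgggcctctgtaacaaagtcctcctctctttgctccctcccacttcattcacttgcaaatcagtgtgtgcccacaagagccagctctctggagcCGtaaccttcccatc
Pcdh10: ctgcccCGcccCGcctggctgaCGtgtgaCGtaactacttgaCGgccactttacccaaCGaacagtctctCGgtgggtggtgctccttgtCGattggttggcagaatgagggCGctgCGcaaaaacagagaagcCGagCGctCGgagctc
Pcdh20: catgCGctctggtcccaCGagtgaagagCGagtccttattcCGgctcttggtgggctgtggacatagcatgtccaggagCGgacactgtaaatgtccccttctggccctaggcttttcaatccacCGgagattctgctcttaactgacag

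The promoters differed in CG content. Over the 250 bases before the start, Cdh19 held 0 CG dinucleotides, as did 7.83% of all 33469 promoters in the table, and Pcdh10 held 20, a number reached by 16.7%. Cdh6 held 7 and Pcdh20 6, near the median of 5 over all promoters. Of 4 short motifs read on both strands, CAGGTG, an E-box bound by Snail and Zeb factors, was in 1 of the 23 members, Pcdh15, against 15.9% of all promoters. ACAAAG, a core of Sox factor sites, was in 5 members, among them Cdh6 and Pcdh17, against 16.3%, and it can be read in the Cdh6 line at base 97 before the start. TGANTCA, the AP-1 motif, was in 1, Cdh20, against 6.34%, and GGGCGG, the Sp1 box, in 8, against 30.5%. These are matches of letters only.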

How the data were processed

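Libraries were made from total RNA with the Ovation RNA-seq system V2, which amplifies cDNA, and per the labels the authors aligned reads to the rat genome build Rnor_6.0 with STAR and quantified genes with RSEM. The deposited files give, per library, the expected count, the FPKM and the TPM of each of 31038 genes as the authors' RSEM run wrote them. Expected counts were rounded to whole numbers. A count matrix with the same expected counts, and a table of the authors' gene modules, whose columns name no sample of the labels, were not used here.

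Tests were made in edgeR 4.0.16 by quasi-likelihood (limma 3.58.1, R 4.3.3) with TMM scaling and filterByExpr, and p-values were adjusted by the Benjamini-Hochberg method over all genes of a fit. The 8 Schwann cell libraries, the 8 whole nerve libraries and all 16 were fitted separately, with the group as the only term, and a gene was called at an adjusted p under 0.05. The threshold, the filter and the fits were the same for members and all other genes. Where every library of a group had at most 3 counts, a fold is given only as a bound at 3 counts per library. The scripts were tested on simulated data. FPKM are library values and were not tested. Members with a mean of at least 1 FPKM in a group are given in full. The members, the partner lists and the marker lists were chosen with earlier results of these data known. The promoters came from RefSeq on GRCr8. Alternatives were DESeq2 1.42.0, other scalings and filters, other libraries in the fit, a replicate block, a 2-fold minimum and leaving out each library. Scaling to library totals was added after the data were seen. Python 3.11.15 with pandas 2.3.3 and matplotlib 3.10.9 was used for levels and plots.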

Additional observations from a re-analysis of the deposited data

Results flagged for a closer look

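For 37 values with more than 3 counts in some library of each group, the change after crush differed between Schwann cells and whole nerve by a test of the difference itself, the interaction term of the 16-library edgeR fit with an adjusted p under 0.05. Of the 12, 15 and 13 members called on days 3, 5 and 7, Cdh3 (higher) and Pcdh8 (lower) on day 3 and Pcdh8 (lower) on day 5 had at most 3 counts in each library of a group. They are left out below, since their fitted fold depends on the prior count. Values are log2 fold changes in Schwann cells minus those in whole nerve, and the explanations for them were not tested.

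Among the values kept, the difference on day 3 was positive for Cdh1 (1.03), Cdh13 (2.04) and Pcdh20 (3.76). It was negative for Cdh2 (−1.29), Cdh6 (−1.03), Cdh11 (−4.51), Cdh17 (−1.62), Pcdh17 (−0.67), Pcdh18 (−2.10) and Pcdh19 (−1.07). The calls of Cdh17, Pcdh17 and Pcdh19 were lost in most fits with 1 library left out. Cdh17 was lost in 7 of 8, at −0.73 to −1.82, Pcdh17 in 6, at −0.54 to −0.71, and Pcdh19 in 7, at −0.94 to −1.13. Cdh17 was also not called by DESeq2 (adjusted p = 0.0612), with RLE size factors (0.0528), with upper quartile scaling (0.0533) or with only the compared groups fitted (0.105).

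At day 5 the difference was positive for Cdh1 (1.29), Cdh13 (2.61), Cdh20 (2.37) and Pcdh20 (4.46). Cdh20 was not called without replicate 1 of the day 5 Schwann cells (1.85). The difference was negative for Cdh2 (−2.61), Cdh11 (−4.97), Cdh17 (−2.87), Cdh19 (−0.94), Pcdh1 (−0.92), Pcdh7 (−1.05), Pcdh9 (−1.45), Pcdh17 (−1.80), Pcdh18 (−1.60) and Pcdh19 (−2.03). Pcdh1 was lost in 6 of 8 fits with 1 library left out, at −0.73 to −0.94.

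At day 7 the difference was positive for Cdh1 (0.89), Cdh13 (2.31) and Pcdh20 (4.28). It was negative for Cdh2 (−1.72), Cdh11 (−4.06), Cdh17 (−3.98), Cdh19 (−0.63), Pcdh1 (−1.02), Pcdh7 (−1.003), Pcdh9 (−1.86), Pcdh17 (−1.13), Pcdh18 (−1.06) and Pcdh19 (−1.69). Without replicate 1 of the day 7 Schwann cells the calls of Cdh1 (0.65), Pcdh1 (−0.82), Pcdh18 (−0.84) and Pcdh19 (−1.30) were lost. Without replicate 2 of day 7 whole nerve those of Cdh1 (0.71), Cdh19 (−0.47), Pcdh1 (−0.60) and Pcdh18 (−0.84) were lost, and without replicate 1 of uncrushed whole nerve those of Cdh19 (−0.53) and Pcdh1 (−0.86). With only the compared groups fitted, the day 7 calls of Cdh19 (adjusted p = 0.0517), Pcdh1 (0.0586) and Pcdh18 (0.0562) were lost too.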

How the results depend on the processing

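Of 1575 values of named members under the other settings, 1542 kept their direction and their side of the threshold, 20 lost the call, 12 gained it and 1 turned, and of 908 with 1 library left out 812 kept both. For partner genes these were 369 of 382 and 153 of 172, in whole nerve for Sox2, Ctnnb1 and Ctnna3 alone. The values cover comparisons called in the main fit and a chosen set of uncalled ones. Calls gained in the remaining uncalled comparisons are thus not counted. With a 2-fold minimum, which is stricter by construction, the members called were 5 between days 3 and 7 in Schwann cells, 6 at day 3 and 5 between days 3 and 7 in whole nerve, and the catenins called in Schwann cells were 3 at day 5 and 3 at day 7, the cadherin relatives at day 7 14. The calls over all genes then fell from 7860 to 4067 at day 3 in Schwann cells and from 7212 to 3297 in whole nerve. At days 5 and 7 in Schwann cells they fell from 8167 to 4213 and from 7016 to 3421. Between days 3 and 7 they fell from 3140 to 1127 in Schwann cells and from 3357 to 1072 in whole nerve. With at least 10 counts in every library, which leaves fewer genes to test, Schwann cells and whole nerve differed in 10 members in uncrushed nerves, 11 on day 3 and 11 on day 5. The calls over all genes at these stages were then 7570, 6698 and 5909, against 10844, 9638 and 8694. With 1 library left out the members called ranged from 5 to 8 between days 3 and 7 in Schwann cells and from 4 to 8 in whole nerve, and from 7 to 11 for the difference between tissues at day 3. Over all genes the calls between days 3 and 7 were then 1533 to 2182 in Schwann cells, against 3140, and 1635 to 2516 in whole nerve, against 3357. With DESeq2, 4 members were higher and 5 lower at day 7 than at day 3 in Schwann cells, where 2857 genes were called, against 3140 by edgeR. With library totals 7959 genes were called at day 7 in whole nerve, against 4952.

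Direction turned for 3 values. Cdh1 in uncrushed Schwann cells against whole nerve was 0.063 under library totals and −0.25 under TMM, neither called. Cdh5 in Schwann cells at day 3 ranged from −0.94 to 2.42 and Ctnna1 from −0.25 to 0.01 with 1 library left out, Ctnna1 being at 0.0054 without replicate 1 of the uncrushed cells. The cause was not tested. By expected counts, which are not scaled to gene length, protocadherins made up 34.04%, 62.7%, 57.5% and 51.1% of the members' sum in Schwann cells in the order uncrushed, day 3, day 5, day 7, and 28.2%, 48.5%, 46.8% and 41.7% in whole nerve. Cdh19 then gave 29.4% at day 3 and 28.6% at day 5 in Schwann cells, and Cdh2 13.9%, 3.09%, 1.95% and 2.68%.

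The replicate numbers gave no sign of pairing the libraries. The difference between replicates 2 and 1 of a group, over genes, correlated between groups at −0.06 to 0.08, and 0 pairs of groups exceeded 0.1. With the replicate block, 16, 15 and 14 members were called at days 3, 5 and 7 in Schwann cells and 13, 12 and 11 in whole nerve. Over all genes it called 7657, 7896 and 6766 in Schwann cells and 7351, 6237 and 5117 in whole nerve. The block ended the calls of Pcdh19 in Schwann cells on day 5 (adjusted p = 0.0524) and of its difference between tissues on day 3 (0.0503), and Cdh11 was called with it in whole nerve on day 5 (0.0330) and day 7 (0.0358). With 2 libraries a group and low counts, changes of members below 1 FPKM could be missed. An alternative based on the module table's FPKM was not run.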
